A study of Homo sapiens with 26 samples.

Results

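The comparison described here is that of HCT116 cells labelled as knockouts of both CDK8 and CDK19 (DKO, CDK8/19 KO) with HCT116 cells labelled as knockouts of CDK8 alone (CDK8KO), which asks what targeting CDK19 adds where CDK8 has already been lost. It uses 12 of the 26 libraries of the series, chosen by their labels: 6 DKO libraries, 3 each from sublines DKO-C1 and DKO-C2, and 6 CDK8KO libraries, 3 each from sublines CDK8KO-C1 and CDK8KO-C2. None of the 12 was given a drug. HCT116 is a human colorectal carcinoma cell line, and all cells grew as adherent monolayers in DMEM with serum. The same question can be put without CDK8 loss by 9 further libraries, 6 labelled as CDK19 knockouts (CDK19KO, sublines C1 and C2) and 3 of HCT116 control cells, which share no library with the first comparison. The remaining 5 libraries, of control cells and DKO-C1 given the BET inhibitor JQ1, serve only the estimate of the spread. The labels do not say whether the DKO sublines were made from either CDK8KO subline, so each subline stands for itself and 2 sublines per genotype are the limit of every statement on genotype.

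Mediator is the large complex that passes signals from DNA-bound transcription factors to RNA polymerase II. CDK8 and CDK19 are closely related kinases that occupy the same place in its detachable kinase module, each bound to cyclin C (CCNC) and held by MED12 and MED13 or their paralogs MED12L and MED13L. A cell that has lost CDK8 can still assemble the module around CDK19, and a cell that has lost both has no such kinase. The module is known for acting on signal-dependent genes, among them targets of STAT, SMAD, Wnt and serum-response pathways.

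Gene counts per library were 18329406 to 18891777 in DKO and 17818750 to 19093094 in CDK8KO. Pseudogenes took 0.422% to 0.463% of gene counts in DKO libraries and 2.67% to 2.90% in CDK8KO libraries, where control libraries stood at 2.89% to 2.95% and CDK19KO libraries at 2.72% to 3.15%. Of 1831 pseudogenes tested, 1325 (72.4%) were called lower in DKO and 109 (5.95%) higher, with a median log2 fold change of -3.0. Genes with pseudogene copies or overlapping exons can be counted differently where this share differs so widely, so the results below rest on distinct genes. These are protein-coding genes that share under 10% of their 50-base words with transcripts of other genes and have no exon in common with another gene on either strand. All other protein-coding genes are called flagged. The mitochondrial share was 4.55% to 5.72% in DKO and 7.42% to 8.62% in CDK8KO, where control libraries stood at 6.90% to 8.24% and CDK19KO libraries at 4.97% to 6.37%. An ERCC spike-in is named in the labels of DKO and control and not in those of CDK8KO and CDK19KO, so a batch that follows this label cannot be told apart from the genotype in either comparison, and it runs the opposite way in the second. Library DKO-C2 replicate b stood apart from its 2 fellows, the chi-square divided by its degrees of freedom being 9.74 and 11.9 for its pairs and 1.38 to 3.70 for the other pairs within these sublines. Leaving it out changed no count of calls below by more than 1.5 times. The 12 colorectal epithelial markers summed to 6100 to 7571 CPM in DKO and 5646 to 7097 CPM in CDK8KO, carried by KRT8, KRT18, KRT19, EPCAM, CDH1 and CDX2, while the other 6 (among them VIL1, CDX1, LGALS4 and CEACAM5) lay under 1 CPM.

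The targeted genes were read first. CDK8 RNA measured 35.4 to 40.4 CPM (median 38.5) in the 6 DKO libraries, against 43.6 to 48.3 CPM (median 44.7) in the 6 CDK8KO libraries. The genotypes did not overlap, and CDK8 was lower in DKO by a log2 fold change of -0.24 ± 0.040 (SE, adjusted p = 2.43e-06), a change that turned to 0.073 when libraries were scaled by their ERCC counts and did not pass the test with counts summed per subline (adjusted p = 0.0733). CDK8KO cells thus kept CDK8 RNA near the control level of 50.9 CPM. CDK19 RNA measured 31.8 to 41.3 CPM (median 34.7) in the 6 DKO libraries, against 32.2 to 37 CPM (median 34) in the 6 CDK8KO libraries, and the ranges overlapped: the libraries labelled for loss of CDK19 as well did not hold detectably less of its RNA. The CDK19 log2 fold change was 0.062 ± 0.050 (SE, adjusted p = 0.288). In CDK19KO cells CDK19 stood at 18.9 CPM in subline C1 and 25.4 CPM in subline C2, against 27.3 CPM in control. Counts over the whole gene do not show whether an edited transcript makes protein, so RNA levels here check the labels only in part. Of the other distinct members of the kinase module, MED13 rose by 0.19 and MED12 by 0.11 on the log2 scale. Cyclin C averaged 76.8 ± 6.66 CPM in DKO and 93.8 ± 3.47 CPM in CDK8KO (SD, n = 6 each, as in all such pairs of means below), MED12L 6.73 ± 0.594 CPM in DKO and 8.32 ± 1.04 CPM in CDK8KO and MED13L 210.1 ± 9.41 CPM in DKO and 234 ± 11.1 CPM in CDK8KO. All 3 overlap exons of genes on the opposite strand and are flagged, and their lower values in DKO turned to higher ones with ERCC factors. Of the 10 tested distinct core Mediator subunits 4 rose and 3 fell, with MED30 (12.5 ± 1.33 CPM in DKO and 9.06 ± 1.05 CPM in CDK8KO) and MED19 (19.5 ± 2.09 CPM in DKO and 15.4 ± 2.49 CPM in CDK8KO) the furthest up.

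Most genes differed by a small amount and a minority by a large one. Of 13198 protein-coding genes tested, 8464 (64.1%) were called at an adjusted p under 0.05, and of the 6394 distinct ones 4172 (65.2%) were called, 2464 (38.5%) higher in DKO and 1708 (26.7%) lower. The median size of the log2 fold change over distinct genes was 0.22, and 405 distinct genes (6.33%) were called with a change of at least 2-fold, 298 higher (4.66%) and 107 lower (1.67%). Calls also made with one sign in all 4 pairs of a DKO with a CDK8KO subline numbered 2018 (31.6%), 1295 higher (20.3%) and 723 lower (11.3%). All 6 libraries of one genotype lay above all 6 of the other for 2099 distinct genes (32.8%). With counts summed per subline, so that 2 values face 2, 1521 distinct genes were called, 1040 higher and 481 lower. Factors from the ERCC spike-in moved the median gene by 0.32 on the log2 scale and gave 4007 distinct genes higher and 229 lower, so every rise and fall below is relative to the median gene. With TMM factors computed over distinct genes alone, the split was 2071 higher and 2120 lower for the main comparison, and 1053 higher and 986 lower for all 4 pairs. Any list of genes has to be read against 38.5% higher and 26.7% lower.

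The largest rises included several genes that YAP and TAZ switch on with their TEAD partners, the output of the Hippo pathway that responds to cell shape and density. ANKRD1, an ankyrin-repeat cofactor and a standard readout of that pathway (chr10:90912096-90921276 on hg38 in GENCODE v29, minus strand), had 16.4, 15.5 and 14.9 CPM in DKO-C1 and 14.4, 11.8 and 14.2 CPM in DKO-C2, against 2.14, 1.55 and 1.78 CPM in CDK8KO-C1 and 0.331, 0.0520 and 0.107 CPM in CDK8KO-C2. Every DKO library was above every CDK8KO library, as required of genes named among the largest rises. CDK8KO-C2 was near the detection floor with 6, 1 and 2 counts. The ANKRD1 log2 fold change was 4.71 ± 0.14 (SE, adjusted p = 4.72e-27), and against CDK8KO-C1 alone it was 3.09 for DKO-C1 and 2.88 for DKO-C2. With counts summed per subline it was 3.89 ± 0.74 (SE, adjusted p = 0.0133). CYR61, a secreted matrix-associated protein of the CCN family (chr1:85580761-85583962, plus strand), had 447, 405 and 417 CPM in DKO-C1 and 554, 559 and 519 CPM in DKO-C2, against 49.7, 54 and 43 CPM in CDK8KO-C1 and 27.9, 32.7 and 28.7 CPM in CDK8KO-C2. That is a 12.6-fold rise, with a log2 fold change of 3.65 ± 0.084 (SE, adjusted p = 8.01e-31), and control cells stood at 20.3 CPM. Counts summed per subline gave CYR61 3.62 ± 0.26 (SE, adjusted p = 0.00023). NT5E, the ectonucleotidase CD73, measured 155 ± 3.20 CPM in DKO-C1 and 169.7 ± 15.5 CPM in DKO-C2, against 69.4 ± 1.22 CPM in CDK8KO-C1 and 8.72 ± 0.327 CPM in CDK8KO-C2 (SD, n = 3 each). The DKO sublines were alike, while the CDK8KO sublines were far apart, and with counts summed per subline NT5E did not pass the test (adjusted p = 0.117). NUAK2, a kinase that feeds back on YAP, averaged 14.7 ± 1.96 CPM in DKO and 5.70 ± 1.64 CPM in CDK8KO.

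Of the YAP/TEAD list, 8 of 11 tested distinct members rose and 2 fell (median log2 fold change 1.0), and 8 higher and 0 lower in all 4 subline pairs. The 2 that fell were the factors TEAD3 and TEAD4, at -0.10 and -0.16 on the log2 scale, which turned to 0.22 and 0.17 with ERCC factors, where the list's median was 1.31. Over all 23 tested members, flagged ones included, 19 rose and 3 fell. The flagged members include CTGF, the CCN-family relative of CYR61 that overlaps an exon on the opposite strand and was picked here after its values were seen. It averaged 234 ± 53 CPM in DKO and 8.0 ± 3.04 CPM in CDK8KO. In CDK19KO against control, 3 of the 11 rose and 2 fell, and with ERCC factors 0 rose and 10 fell. These counts average sublines that went opposite ways. The list's median against control was -0.56 in CDK19KO-C1 and 0.34 in CDK19KO-C2, or -2.32 and -1.21 with ERCC factors.

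The start-site sequences of 3 genes of this list are shown because they hold the TEAD-binding hexamer GGAATG, read as GGAATG or on the other strand as CATTCC. Each is the stretch of 250 bases before the RefSeq start site (GRCh38.p14), 5′ to 3′ on the minus strand where all 3 genes lie, at chr10:90921088-90921337 for ANKRD1, chr6:131951373-131951622 for CTGF and chr1:205321746-205321995 for NUAK2, with the hexamers in capitals and, in ANKRD1, also 1 match to the AP-1 motif TGANTCA.
ANKRD1: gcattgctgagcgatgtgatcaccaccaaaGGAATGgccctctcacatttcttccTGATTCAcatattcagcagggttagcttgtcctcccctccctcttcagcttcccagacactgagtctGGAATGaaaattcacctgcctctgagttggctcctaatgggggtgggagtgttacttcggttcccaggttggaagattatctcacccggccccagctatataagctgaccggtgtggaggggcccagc
CTGF: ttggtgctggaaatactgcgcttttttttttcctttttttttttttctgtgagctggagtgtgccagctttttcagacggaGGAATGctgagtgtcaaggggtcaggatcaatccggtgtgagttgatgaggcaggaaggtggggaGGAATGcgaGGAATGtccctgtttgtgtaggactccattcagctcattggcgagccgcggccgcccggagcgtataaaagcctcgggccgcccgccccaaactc
NUAK2: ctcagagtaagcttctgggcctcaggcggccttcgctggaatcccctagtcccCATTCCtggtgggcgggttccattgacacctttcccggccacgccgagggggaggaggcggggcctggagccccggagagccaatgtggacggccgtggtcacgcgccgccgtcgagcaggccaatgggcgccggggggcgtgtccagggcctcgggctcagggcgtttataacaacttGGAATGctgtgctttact
ANKRD1 holds the hexamer 2 times, beginning 220 and 128 bases before the start, with the AP-1 match between them at 195. CTGF holds it 3 times, beginning at 169, 104 and 95 bases, and NUAK2 2 times, at 197 and 18 bases. In windows from 250 bases before to 50 after the start, 10 of 23 promoters of the 18 listed YAP/TEAD genes with an entry held the hexamer (43.5%), as did 12.2% of 22198 promoters of protein-coding genes. The list was drawn up from known targets of these factors, which were in part found through such sites. Among distinct genes at least 2-fold higher in DKO, 14.6% of 362 promoters held GGAATG and 11.3% held TGANTCA, and among those at least 2-fold lower 16.8% and 4.20% of 119 did. Over all distinct genes tested the shares were 10.8% and 5.57% of 7361 promoters. The CArG box, the site of serum response factor, was in 3.59% of promoters of the higher genes, 0.84% of the lower and 1.14% of all distinct genes. A match is a match of letters only, and factor binding was not measured.

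**Figure D1:**
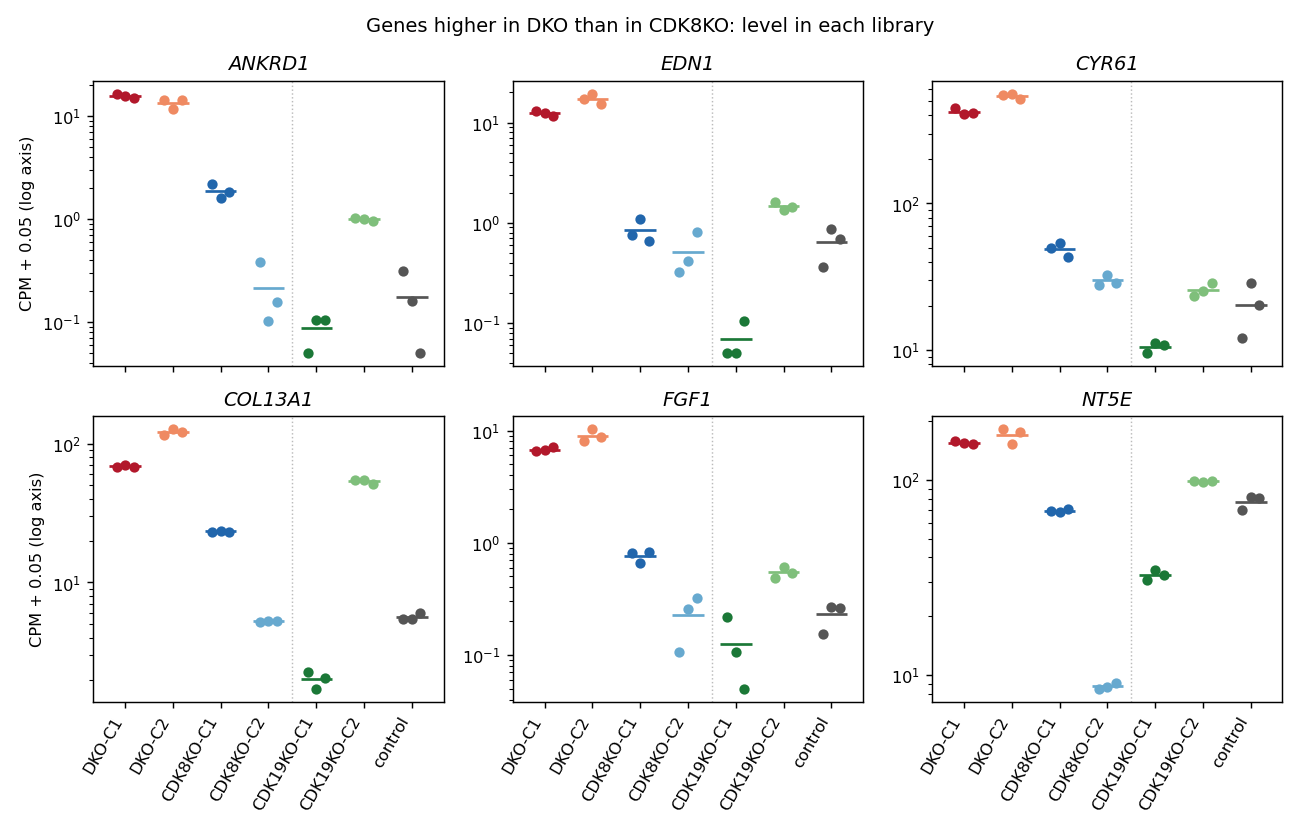
Level of 6 genes higher in DKO than in CDK8KO, one point per library, as CPM plus 0.05 on a log axis; bars are the means of each subline (n = 3). All DKO libraries lie above all CDK8KO libraries in each panel, as the naming rule required. Over all distinct genes, the libraries of the genotypes did not overlap for 32.8%. CDK8KO-C2 is lower than CDK8KO-C1 for ANKRD1, COL13A1, FGF1 and NT5E.

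Among the other large rises named by the rule, EDN1, the vasoactive peptide endothelin-1 (chr6:12290363-12297194, plus strand), measured 12.4 ± 0.735 CPM in DKO-C1 and 17.2 ± 2.03 CPM in DKO-C2, against 0.792 ± 0.231 CPM in CDK8KO-C1 and 0.464 ± 0.253 CPM in CDK8KO-C2 (SD, n = 3 each), a log2 fold change of 4.57 ± 0.13 (SE, adjusted p = 2.84e-27). FGF1, acidic fibroblast growth factor, measured 6.46 to 10.2 CPM (median 7.52) in the 6 DKO libraries, against 0.0552 to 0.778 CPM (median 0.439) in the 6 CDK8KO libraries. DCLK1, a doublecortin-like kinase that marks tuft cells in the gut, measured 28.4 ± 1.17 CPM in DKO-C1 and 27.7 ± 0.532 CPM in DKO-C2, against 2.12 ± 0.295 CPM in CDK8KO-C1 and 2.09 ± 0.271 CPM in CDK8KO-C2, and its 4 subline pairs were the closest together of the 14 largest rises. COL13A1, a transmembrane collagen (chr10:69801867-69964275, plus strand), measured 68.6 ± 1.65 CPM in DKO-C1 and 120.4 ± 5.58 CPM in DKO-C2, against 23.2 ± 0.281 CPM in CDK8KO-C1 and 5.21 ± 0.0713 CPM in CDK8KO-C2. Its log2 fold change was 3.05 ± 0.046 (SE, adjusted p = 9.71e-37), with a wider gap to CDK8KO-C2 than to CDK8KO-C1. The subline pairs ran from 1.56 to 4.53. With counts summed per subline its log2 fold change was 2.74 ± 0.66 (SE, adjusted p = 0.0297). SERPINA1, the protease inhibitor alpha-1 antitrypsin, averaged 21.8 ± 2.88 CPM in DKO and 2.90 ± 1.68 CPM in CDK8KO, and DYSF, the membrane repair protein dysferlin, 7.20 ± 1.03 CPM in DKO and 1.41 ± 0.849 CPM in CDK8KO. FAT4, an atypical cadherin, averaged 7.16 ± 0.603 CPM in DKO and 1.08 ± 0.886 CPM in CDK8KO, and EFNA5, an ephrin ligand, 5.44 ± 1.02 CPM in DKO and 0.672 ± 0.263 CPM in CDK8KO. LCP1, the actin bundler L-plastin, was higher in DKO-C1 (14.3 CPM) than in DKO-C2 (4.48 CPM), both above the 1.07 CPM of CDK8KO. The sulfatase ARSJ averaged 28.3 ± 3.14 CPM in DKO and 3.89 ± 0.551 CPM in CDK8KO. B3GALT5, a glycan galactosyltransferase, averaged 14 ± 1.73 CPM in DKO and 3.21 ± 2.47 CPM in CDK8KO and lost its call with counts summed per subline (adjusted p = 0.0608).

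Genes of the actin cytoskeleton rose together. Of the actin-binding and contractile list, 12 of 13 tested distinct members rose and 0 fell (median log2 fold change 0.71), with 10 higher and 0 lower in all 4 subline pairs. MYL9, the regulatory light chain of nonmuscle and smooth muscle myosin, measured 391 to 563 CPM (median 432) in the 6 DKO libraries, against 102 to 151 CPM (median 131) in the 6 CDK8KO libraries, and its log2 fold change was 1.80 ± 0.050 (SE, adjusted p = 6.04e-28). MYH9, the heavy chain of nonmuscle myosin IIA, averaged 1743 ± 92.4 CPM in DKO and 939 ± 169 CPM in CDK8KO, a 1.88-fold difference. TNNC1, a troponin better known from muscle, averaged 23 ± 6.41 CPM in DKO and 8.31 ± 1.64 CPM in CDK8KO, and ACTG2, the enteric smooth muscle actin, 2.78 ± 0.309 CPM in DKO and 0.306 ± 0.173 CPM in CDK8KO. The only distinct member without a call was MYL2, at 0.065. Of annexins, calcium-dependent membrane-binding proteins, 6 of 9 tested distinct members rose and 1 fell (median log2 fold change 0.55). ANXA6 averaged 215 ± 20.8 CPM in DKO and 98 ± 12.1 CPM in CDK8KO and ANXA2 2107 ± 189.7 CPM in DKO and 1091 ± 148 CPM in CDK8KO.

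TGF-beta signals through SMAD proteins, and the SMAD targets measured here were mostly higher. Of that list, 8 of 12 tested distinct members rose and 2 fell (median log2 fold change 0.46), and 6 higher and 0 lower in all 4 pairs. The inhibitory SMAD7 averaged 20.7 ± 2.75 CPM in DKO and 7.88 ± 0.755 CPM in CDK8KO, a log2 fold change of 1.39 ± 0.080 (SE, adjusted p = 7.42e-18), and the matrix protein TGFBI averaged 1.56 ± 0.499 CPM in DKO and 0.365 ± 0.198 CPM in CDK8KO. The CDK inhibitor CDKN2B averaged 5.83 ± 0.913 CPM in DKO and 3.62 ± 0.440 CPM in CDK8KO. The members that fell were the receptor TGFBR1 (-0.12) and the decoy receptor BAMBI (-0.32), and TGFBR1 was 0.19 with ERCC factors and BAMBI -0.0047. Of the mesenchymal list, 7 of 9 tested distinct members rose and 2 fell (median log2 fold change 0.67). SNAI2, the repressor Slug, measured 3.65 to 5.49 CPM (median 4.52) in the 6 DKO libraries, against 0.0537 to 0.666 CPM (median 0.330) in the 6 CDK8KO libraries. FN1, fibronectin, measured 60.6 to 98.5 CPM (median 76.1) in the 6 DKO libraries, against 15.1 to 18.6 CPM (median 16) in the 6 CDK8KO libraries, a 4.63-fold rise with a log2 fold change of 2.21 ± 0.051 (SE, adjusted p = 8.12e-31). The related repressor SNAI1 and S100A4 went the other way, at -0.47 and -0.45 on the log2 scale. Of matrix genes, 9 of 13 tested distinct members rose and 1 fell (median log2 fold change 0.69). LAMA3, a laminin chain of epithelial basement membranes, averaged 21.4 ± 2.49 CPM in DKO and 6.32 ± 1.03 CPM in CDK8KO, a 3.39-fold rise, and LAMC1, a laminin chain found in most basement membranes, measured 192 to 212 CPM (median 195) in the 6 DKO libraries, against 94.5 to 117 CPM (median 101) in the 6 CDK8KO libraries. COL12A1, a fibril-associated collagen, averaged 486 ± 126 CPM in DKO and 171 ± 91.4 CPM in CDK8KO, with CDK8KO-C1 at 255 CPM and CDK8KO-C2 at 88 CPM, and lost its call with counts summed per subline (adjusted p = 0.0681).

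Beside these lists, the 11 fibroblast markers summed to 138 to 192 CPM in DKO and 50.3 to 71.3 CPM in CDK8KO. FBLN1 (131 ± 19.6 CPM in DKO and 42 ± 6.25 CPM in CDK8KO) and COL1A1 (25.7 ± 3.10 CPM in DKO and 19.3 ± 3.46 CPM in CDK8KO) were the only ones at 1 CPM or more, and PDGFRA, LUM, DCN and POSTN had 0 counts in all 12 libraries. Endothelial markers summed to 33.6 to 47.7 CPM in DKO and 36.5 to 42.1 CPM in CDK8KO, leukocyte markers to at most 1.35 and 1.26 CPM, and markers of kidney or embryonic lines to 37.4 to 48.0 CPM and 38.4 to 43.6 CPM. In RNA from whole cultures, more cells in one state and more RNA per cell cannot be told apart. Of epithelial junction genes, 9 of 12 tested distinct members rose and 2 fell (median log2 fold change 0.26). DSC2, a desmosomal cadherin, averaged 72.5 ± 7.32 CPM in DKO and 35.8 ± 1.47 CPM in CDK8KO, and the tight junction proteins OCLN and TJP1 rose by 0.57 and 0.55 on the log2 scale. Keratins were mixed, with 2 of 5 tested distinct members higher and 2 lower. KRT80 averaged 95.3 ± 7.28 CPM in DKO and 37.2 ± 4.04 CPM in CDK8KO and KRT19 459.5 ± 57.1 CPM in DKO and 595 ± 84.9 CPM in CDK8KO.

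**Figure D2:**
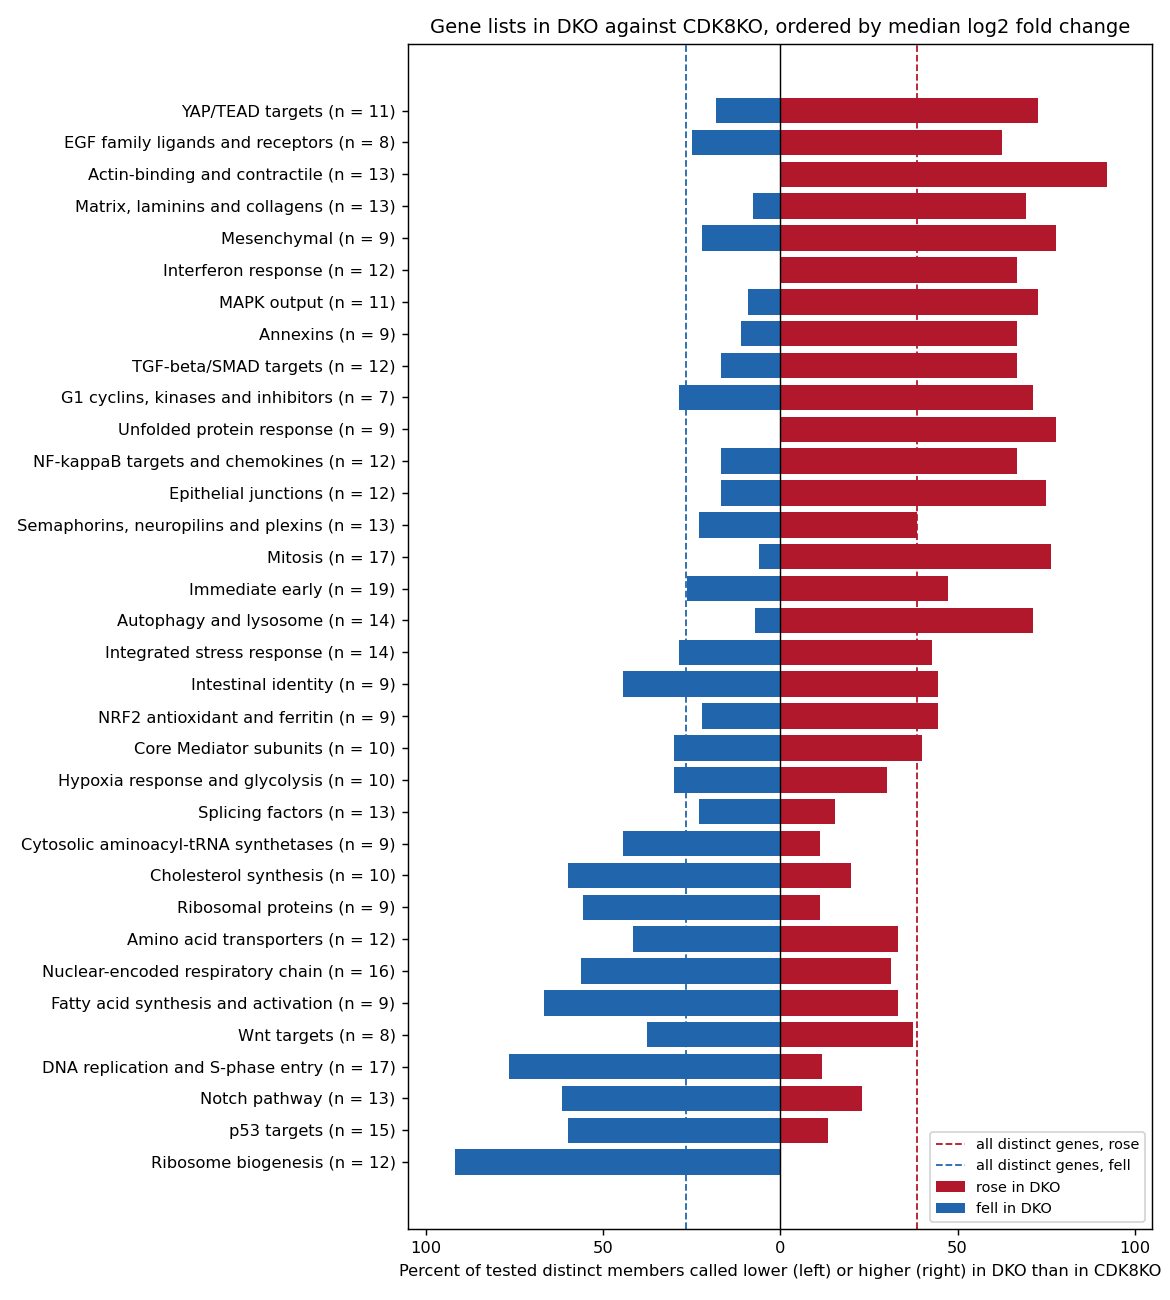
Share of the tested distinct members of each gene list called higher (right, red) or lower (left, blue) in DKO than in CDK8KO, for lists of 7 or more, ordered by median log2 fold change; dashed lines mark the 38.5% and 26.7% of all distinct genes. Actin-binding genes (12 of 13 higher) and ribosome biogenesis genes (11 of 12 lower) lie toward opposite ends. With ERCC factors, which moved the median gene up by 0.32, the list medians below -0.1 turn positive, that of ribosome biogenesis excepted (-0.0034).

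Growth factor signalling genes changed in both directions. In the EGF family, whose ligands bind EGFR and the ERBB receptors, 5 of 8 tested distinct members rose and 2 fell. EGF itself averaged 2.0 ± 0.559 CPM in DKO and 0.351 ± 0.225 CPM in CDK8KO and NRG1, a ligand of ERBB3 and ERBB4, 4.51 ± 1.76 CPM in DKO and 1.23 ± 0.675 CPM in CDK8KO. NRG1 missed the threshold with counts summed per subline (adjusted p = 0.0504). The EGFR ligands EREG and AREG went down. EREG measured 133 to 215 CPM (median 187) in the 6 DKO libraries, against 344 to 604 CPM (median 469.6) in the 6 CDK8KO libraries, a log2 fold change of -1.37 ± 0.050 (SE, adjusted p = 3.37e-24), and AREG averaged 18.3 CPM in DKO, against 67.1 CPM in CDK8KO-C1 and 25.2 CPM in CDK8KO-C2 (adjusted p = 0.0691 with counts summed per subline). Control cells had still more of both, 992 CPM of EREG and 131 CPM of AREG. Of the feedback and output genes of the MAPK cascade, 8 of 11 tested distinct members rose and 1 fell (median log2 fold change 0.57). Of those distinct by 20-base words too, 7 of 10 rose and 1 fell (median 0.37). They include the Sprouty inhibitors SPRY1 (3.17 ± 0.702 CPM in DKO and 1.24 ± 0.209 CPM in CDK8KO) and SPRY2 (15.3 ± 1.93 CPM in DKO and 6.64 ± 0.885 CPM in CDK8KO) and the phosphatase DUSP4 (339 ± 31 CPM in DKO and 159 ± 8.87 CPM in CDK8KO). Of immediate early factors, 9 of 19 tested distinct members rose and 5 fell (median log2 fold change 0.14). JUN, a component of AP-1, measured 32.4 to 49.2 CPM (median 40.1) in the 6 DKO libraries, against 7.67 to 19.7 CPM (median 10.3) in the 6 CDK8KO libraries, a log2 fold change of 1.80 ± 0.10 (SE, adjusted p = 2.25e-18), and its partners FOSL1 and FOSL2 rose by 1.01 and 0.99. MYC was the member that fell furthest.

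Most listed inflammatory and immune genes were higher in DKO. Of the NF-kappaB list, 8 of 12 tested distinct members rose and 2 fell (median log2 fold change 0.28). BIRC3, an inhibitor of apoptosis, averaged 5.86 ± 0.759 CPM in DKO and 1.55 ± 0.659 CPM in CDK8KO, and the chemokine CXCL8 1.12 ± 0.270 CPM in DKO and 0.217 ± 0.0317 CPM in CDK8KO. Of interferon response genes, 8 of 12 tested distinct members rose and 0 fell (median log2 fold change 0.62), with 6 higher and 0 lower in all 4 pairs. Of those that are distinct by 20-base words too, 4 of 8 rose and 0 fell (median 0.27), with 2 higher in all 4 pairs. IFIT3 averaged 4.62 ± 0.743 CPM in DKO and 1.64 ± 0.446 CPM in CDK8KO and the RNA sensor DDX58 19 ± 2.54 CPM in DKO and 11 ± 0.543 CPM in CDK8KO. In MHC class I antigen presentation, 4 of 5 tested distinct members rose and 1 fell. B2M, the light chain of class I molecules, measured 282 to 322 CPM (median 299) in the 6 DKO libraries, against 147 to 172 CPM (median 161) in the 6 CDK8KO libraries, a 1.88-fold rise with a log2 fold change of 0.91 ± 0.034 (SE, adjusted p = 8.43e-24). NLRC5, the transactivator of class I genes, averaged 11.2 ± 1.53 CPM in DKO and 6.08 ± 0.974 CPM in CDK8KO. Smaller shifts ran through other lists. Of the unfolded protein response, 7 of 9 tested distinct members rose and 0 fell (median log2 fold change 0.32), with the secreted factor MANF at 120.0 ± 9.59 CPM in DKO and 82.3 ± 3.37 CPM in CDK8KO. Of mitosis genes, 13 of 17 tested distinct members rose and 1 fell (median log2 fold change 0.18), with the ubiquitin-conjugating enzyme UBE2C at 226 ± 24.4 CPM in DKO and 153 ± 12.4 CPM in CDK8KO. Of autophagy and lysosome genes, 10 of 14 tested distinct members rose and 1 fell (median log2 fold change 0.13). Of G1 regulators, 5 of 7 tested distinct members rose and 2 fell (median log2 fold change 0.39), the CDK inhibitor CDKN2C moving most (21.7 ± 1.11 CPM in DKO and 10.5 ± 1.85 CPM in CDK8KO). By contrast, the integrated stress response list showed 6 of 14 higher and 4 lower, near the 38.5% and 26.7% of all distinct genes. Its median log2 fold change was 0.09. Among its members that rose, the secreted factor STC2 averaged 144 ± 34.3 CPM in DKO and 84.4 ± 7.38 CPM in CDK8KO. NUPR1, a stress-induced chromatin protein, was higher in DKO-C1 (2.54 CPM) than in DKO-C2 (0.926 CPM), and CDK8KO averaged 0.495 CPM (adjusted p = 0.0800 with counts summed per subline).

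By the naming rule the 3 largest falls among distinct genes were NACA2, PABPC3 and UQCRHL. All 3 resemble other genes at shorter words: they share 48.1%, 29.5% and 36.8% of their 20-base words with other transcripts, and their levels in CDK8KO (5.12, 61.5 and 39.5 CPM) were close to those in control (6.05, 68.1 and 48.1 CPM), and they are set aside. Of the distinct genes, 5401 also share under 10% of 20-base words, and 65.2% of these were called. The largest falls among them by the naming rule follow. SYK, a tyrosine kinase, measured 2.76 ± 0.512 CPM in DKO-C1 and 1.13 ± 0.386 CPM in DKO-C2, against 5.31 ± 0.352 CPM in CDK8KO-C1 and 17.8 ± 0.958 CPM in CDK8KO-C2 (SD, n = 3 each). Its log2 fold change was -2.45 ± 0.11 (SE, adjusted p = 1.03e-20), and the sublines differed within both genotypes. NFIA, a nuclear factor I transcription factor, measured 4.44 ± 0.478 CPM in DKO-C1 and 2.51 ± 0.185 CPM in DKO-C2, against 12.3 ± 0.409 CPM in CDK8KO-C1 and 24.8 ± 1.17 CPM in CDK8KO-C2, and fell by 2.39 ± 0.079 on the log2 scale. LCN2, the siderophore-binding lipocalin, measured 1.98 ± 0.104 CPM in DKO-C1 and 0.676 ± 0.142 CPM in DKO-C2, against 2.97 ± 0.340 CPM in CDK8KO-C1 and 12.3 ± 1.11 CPM in CDK8KO-C2. Its fall rests mainly on CDK8KO-C2, the one subline far above the control level of 1.49 CPM, and did not pass with counts summed per subline (adjusted p = 0.0586).

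EHF, an ETS factor of epithelial cells, measured 15.2 ± 0.777 CPM in DKO-C1 and 9.84 ± 1.28 CPM in DKO-C2, against 47.1 ± 2.21 CPM in CDK8KO-C1 and 49.3 ± 2.87 CPM in CDK8KO-C2, and DPYSL3, a regulator of microtubules and growth cones, 14 ± 0.113 CPM in DKO-C1 and 16.5 ± 0.471 CPM in DKO-C2, against 49.9 ± 1.16 CPM in CDK8KO-C1 and 61.5 ± 1.05 CPM in CDK8KO-C2. In both, the CDK8KO sublines were closer to each other than to either DKO subline, with log2 fold changes of -1.97 ± 0.055 (SE, adjusted p = 4.66e-28) and -1.87 ± 0.042 (SE, adjusted p = 6.28e-31). The adhesion receptor ADGRF1 averaged 12.5 ± 5.23 CPM in DKO and 54.7 ± 31.4 CPM in CDK8KO, with CDK8KO-C1 at 26.1 CPM and CDK8KO-C2 at 83.3 CPM. The arrestin-domain protein ARRDC4 averaged 1.72 ± 0.347 CPM in DKO and 5.74 ± 1.77 CPM in CDK8KO, the Wnt inhibitor NKD2 2.96 ± 0.696 CPM in DKO and 9.11 ± 0.722 CPM in CDK8KO, and the protease KLK7 5.15 ± 0.844 CPM in DKO and 15.7 ± 1.41 CPM in CDK8KO. The exocytosis regulator CPLX1 averaged 4.53 ± 0.771 CPM in DKO and 12.9 ± 1.59 CPM in CDK8KO. ISPD, an enzyme of dystroglycan glycosylation, averaged 3.07 ± 0.339 CPM in DKO and 8.77 ± 0.954 CPM in CDK8KO, the factor SOX8 3.28 ± 0.624 CPM in DKO and 9.24 ± 2.07 CPM in CDK8KO, and TERT, the catalytic subunit of telomerase, 5.11 ± 0.483 CPM in DKO and 13.9 ± 0.883 CPM in CDK8KO. NRARP, a feedback inhibitor of Notch, averaged 7.02 ± 1.26 CPM in DKO and 17.9 ± 2.95 CPM in CDK8KO.

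**Figure D3:**
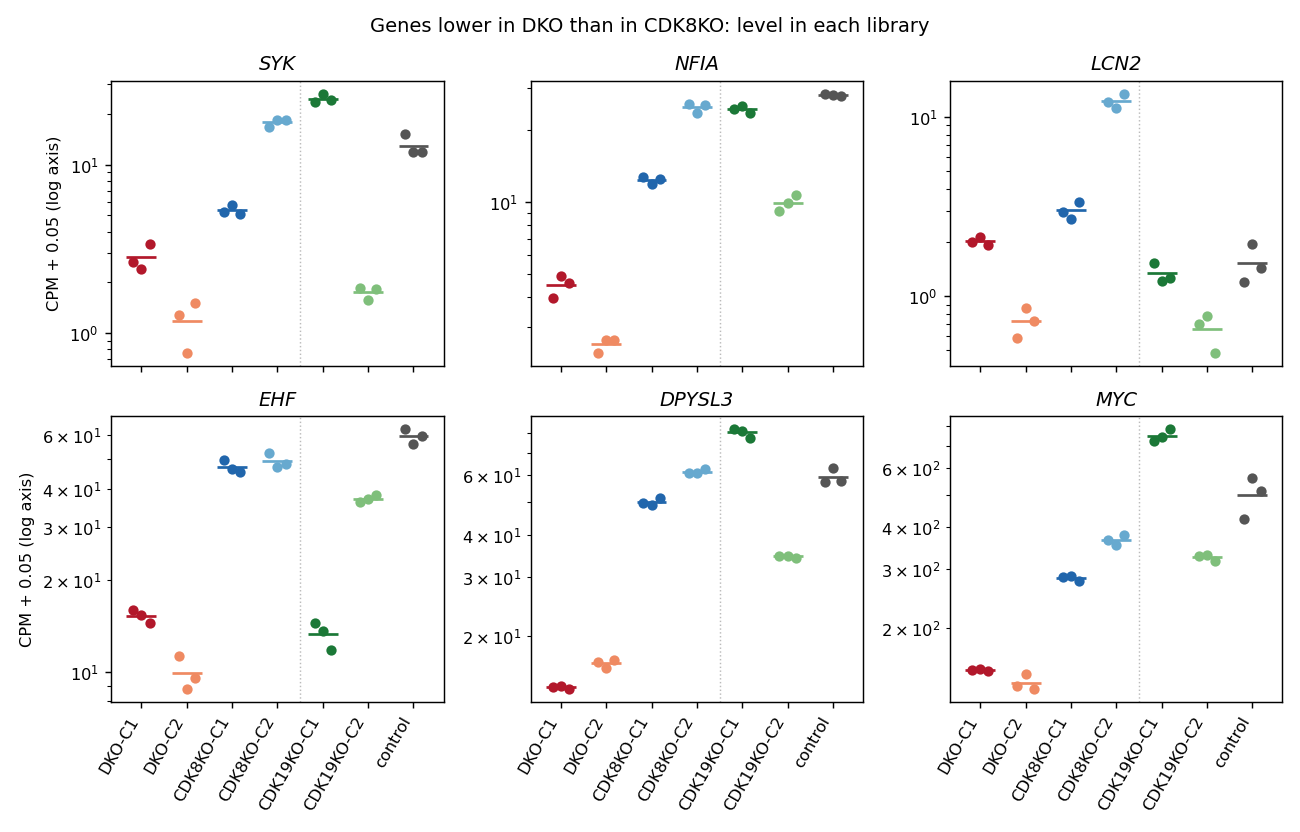
Level of 6 genes lower in DKO than in CDK8KO, one point per library, as CPM plus 0.05 on a log axis; bars are the means of each subline (n = 3). All DKO libraries lie below all CDK8KO libraries in each panel, as the naming rule required of all but MYC, a list member. The CDK8KO sublines are close for EHF and apart for SYK and LCN2.

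MYC, the growth-driving transcription factor, measured 150.4, 151 and 149 CPM in DKO-C1 and 135, 146 and 132 CPM in DKO-C2, against 283, 286 and 277 CPM in CDK8KO-C1 and 367, 355 and 380.0 CPM in CDK8KO-C2. The genotypes were apart and the log2 fold change was -1.16 ± 0.045 (SE, adjusted p = 2.81e-23), which held its sign in every alternative tried. The distinct MYC network members MLXIP and MLXIPL averaged 111 ± 8.56 CPM in DKO and 135 ± 4.09 CPM in CDK8KO for MLXIP and 30.2 ± 3.01 CPM in DKO and 37.4 ± 2.48 CPM in CDK8KO for MLXIPL, lower in DKO by the main scaling and at 0.049 and 0.019 log2 units with ERCC factors. Ribosome biogenesis genes, many of them known MYC targets, were lower relative to the median gene: of that list, 0 of 12 tested distinct members rose and 11 fell (median log2 fold change -0.32), with 0 higher and 9 lower in all 4 pairs, and the median was -0.0034 with ERCC factors. FBL, the methyltransferase fibrillarin, measured 210.2 to 242 CPM (median 219) in the 6 DKO libraries, against 319 to 366 CPM (median 341) in the 6 CDK8KO libraries, a log2 fold change of -0.63 ± 0.034 (SE, adjusted p = 7.79e-19). The acetyltransferase NAT10 averaged 151 ± 2.99 CPM in DKO and 218 ± 10.5 CPM in CDK8KO and lost its call with ERCC factors (adjusted p = 0.0775). Over all 31 tested members, flagged ones included, 27 fell and 1 rose. Of DNA replication genes, 2 of 17 tested distinct members rose and 13 fell (median log2 fold change -0.18), or 0.14 with ERCC factors. The helicase subunit MCM5 averaged 239.6 ± 17.4 CPM in DKO and 343 ± 18.4 CPM in CDK8KO and MCM3 323 ± 9.26 CPM in DKO and 425 ± 19.3 CPM in CDK8KO. Mitosis and replication lists thus had opposite signs relative to the median gene, at sizes under 0.2.

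Targets of p53, which is intact in HCT116, were lower on balance: 2 of 15 tested distinct members rose and 9 fell (median log2 fold change -0.30), or 0.026 with ERCC factors. FDXR, a mitochondrial reductase, measured 32.6 to 43.3 CPM (median 35.9) in the 6 DKO libraries, against 55.1 to 65.4 CPM (median 59.6) in the 6 CDK8KO libraries, a log2 fold change of -0.69 ± 0.048 (SE, adjusted p = 1.64e-15). The exceptions were the kinase PLK2 (375 ± 44.4 CPM in DKO and 141 ± 33.7 CPM in CDK8KO) and GADD45A (44.6 ± 2.23 CPM in DKO and 29.4 ± 0.908 CPM in CDK8KO), both higher. In CDK19KO against control 13 of the same 15 genes rose and 1 fell, with a median of 0.70, which turned to -0.95 with ERCC factors, where 0 rose and 14 fell. Of the Notch pathway, 3 of 13 tested distinct members rose and 8 fell (median log2 fold change -0.29), or 0.038 with ERCC factors. Besides NRARP, the glycosyltransferase LFNG averaged 7.31 ± 1.49 CPM in DKO and 11.3 ± 1.70 CPM in CDK8KO, while the target HES1 was higher (27.3 ± 2.23 CPM in DKO and 16.7 ± 2.23 CPM in CDK8KO). Of cholesterol synthesis genes, 2 of 10 tested distinct members rose and 6 fell (median log2 fold change -0.10), or 0.21 with ERCC factors. SQLE, squalene epoxidase, averaged 58.4 CPM in DKO, against 86.2 CPM in CDK8KO-C1 and 187 CPM in CDK8KO-C2 (adjusted p = 0.0518 with counts summed per subline). FASN, fatty acid synthase, measured 1019 to 1257 CPM (median 1136) in the 6 DKO libraries, against 1612 to 1759 CPM (median 1687) in the 6 CDK8KO libraries, a log2 fold change of -0.57 ± 0.040 (SE, adjusted p = 2.83e-15). Of the nuclear-encoded respiratory chain, 5 of 16 tested distinct members rose and 9 fell (median log2 fold change -0.13), or 0.19 with ERCC factors, and the 3 distinct mitochondrially encoded genes MT-ND3, MT-ND5 and MT-CYB fell, beside the lower mitochondrial share given above, with MT-ND3 at 0.063 under ERCC factors. All 3 share more than 10% of their 20-base words with other transcripts (11.9%, 31.6% and 26.2%), so none is distinct by that stricter limit. The BCL2 family list was balanced, with 2 of 6 tested distinct members higher and 2 lower (median log2 fold change -0.12). Over all distinct genes 38.5% were higher and 26.7% lower. Its members PMAIP1 (92.4 ± 8.90 CPM in DKO and 45.6 ± 1.87 CPM in CDK8KO) and BCL2 (14.2 ± 1.03 CPM in DKO and 8.22 ± 0.591 CPM in CDK8KO), of opposite function, were both higher. PRKAA2, a catalytic subunit of AMP-activated kinase, averaged 22.3 CPM in DKO-C1 and 9.46 CPM in DKO-C2, against 4.53 CPM in CDK8KO-C1 and 8.54 CPM in CDK8KO-C2, and did not pass with counts summed per subline (adjusted p = 0.0915).

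Targeting CDK19 was next compared between backgrounds, DKO against CDK8KO in cells labelled as lacking CDK8 and CDK19KO against control in cells that have it. In CDK19KO against control 3232 distinct genes (50.5%) were called, 1758 higher (27.5%) and 1474 lower (23.1%). Of 2252 distinct genes called in both comparisons, 967 had the same direction (15.1% of all distinct genes, 621 or 9.71% higher and 346 or 5.41% lower) and 1285 the opposite. In all 1285 the difference of the effects was called too. Choosing genes with opposite calls made this all but certain, so it is no separate evidence. Over all distinct genes the difference was called for 3990 (62.4%). With TMM over distinct genes alone, the genes called the same way were 454 higher and 492 lower. With ERCC factors, which moved the median CDK19KO minus control value by -1.65 on the log2 scale, 19 distinct genes were called higher in CDK19KO and 6244 lower, 218 were called the same way in both comparisons (4 higher, 214 lower), and the difference of the effects was positive for 6236 of the genes called and negative for 19, so directions in CDK19KO and of differences are relative to the median gene. Across the 6394 distinct genes, which are not independent replicates, Pearson's r between the effects was -0.029 and Spearman's rho -0.075, and over the 5104 at 5 CPM or more they were -0.10 and -0.11. The CDK19KO sublines often went apart from each other: 1387 distinct genes were called the same way in both against control, and 577 were called in opposite ways. Among 428 genes called in both CDK19KO sublines and in all 4 DKO pairs, 163 went one way throughout (107 higher, 56 lower), 144 were higher in DKO and lower in CDK19KO, and 121 the reverse.

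**Figure D4:**
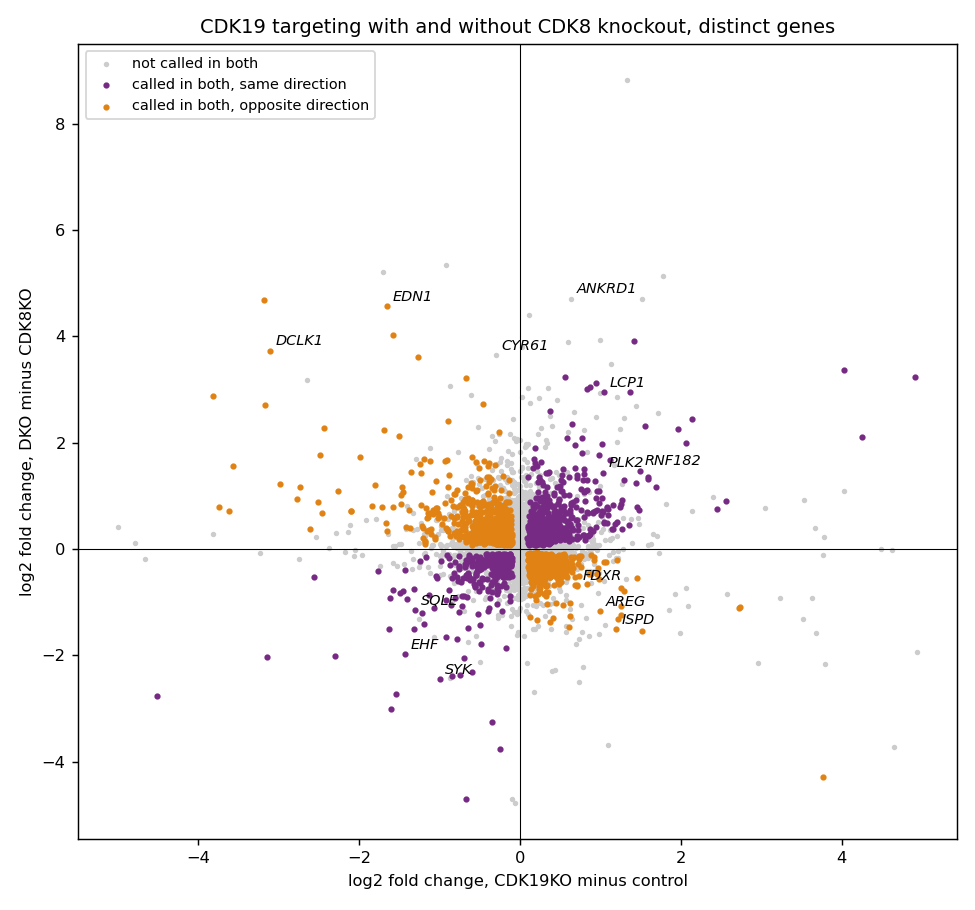
Log2 fold change of DKO minus CDK8KO (vertical) against that of CDK19KO minus control (horizontal) for 6394 distinct genes, which come from libraries that the comparisons do not share. Genes called in both are coloured by whether the directions are the same (967) or opposite (1285); the named genes are those of the text, and the correlation across genes is weak and negative (r = -0.029, or -0.10 at 5 CPM or more). With ERCC factors the genes called the same way are 218, 4 of them higher.

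The genes with the largest shared effect by the naming rule were mixed between sublines. LAMA3 rose by 1.76 in DKO against CDK8KO, and by 1.10 in subline C1 and 0.87 in subline C2 of CDK19KO against control, all on the log2 scale. NTN4, a laminin-related netrin, rose by 1.67 with 0.97 and 1.27 in the CDK19KO sublines, and PLK2 by 1.43 with 0.77 and 1.30. The ubiquitin ligase RNF182, by contrast, rose by 1.48 with 0.083 in subline C1 and 2.89 in subline C2, so its shared effect rests on C2. The matrix protein ECM1 rose by 1.98, with 0.24 and 1.79 in the CDK19KO sublines. With ERCC factors the CDK19KO minus control values of these 5 turned negative, to -0.66 for LAMA3, -0.52 for NTN4, -0.63 for PLK2, -0.16 for RNF182 and -0.63 for ECM1. Those factors moved the median CDK19KO minus control value by -1.65, so negative values could hardly turn positive, and those of the falls stayed negative. Among falls, EHF changed by -1.97 with -2.16 and -0.68, ADGRF1 by -2.01 with -1.70 and -2.90, and the zinc finger gene ZNF704 by -1.20 with -1.23 and -1.19. SCG2, a secretogranin, changed by -1.06 with -1.19 and -0.53. SYK changed by -2.45 in DKO, and by 0.93 in subline C1 and -2.92 in subline C2 of CDK19KO, opposite ways by the main scaling, with -0.83 and -4.46 with ERCC factors.

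Opposite effects were clearest in SLC1A3, a glutamate transporter, which averaged 81.8 ± 5.98 CPM in DKO and 32.2 ± 17.8 CPM in CDK8KO, and 2.90 CPM in CDK19KO, against 25.9 CPM in control. The difference of its effects was 5.12 ± 0.095 (SE, adjusted p = 1.47e-33), though the rise in DKO lost its call with counts summed per subline (adjusted p = 0.0812). TNNC1 averaged 0.811 CPM in CDK19KO, against 2.07 CPM in control, while it was higher in DKO than in CDK8KO. EDN1 and DCLK1 were called lower in CDK19KO than in control, but only CDK19KO-C1 was low, with 0 to 1 counts per library, where CDK19KO-C2 held 1.42 CPM of EDN1 and 3.97 CPM of DCLK1, against 0.593 and 2.73 CPM in control. AREG was lower in DKO than in CDK8KO and averaged 307 and 221 CPM in the C1 and C2 sublines of CDK19KO, against 131 CPM in control, a difference of effects of -2.17 ± 0.083 (SE, adjusted p = 3.65e-23), which did not pass with ERCC factors (-0.18, adjusted p = 0.291). ISPD, FDXR and SBK1, a kinase gene, were likewise lower in DKO than in CDK8KO and higher in CDK19KO than in control. With ERCC factors the CDK19KO minus control values turned negative in all 4, to -0.66 for AREG, -0.46 for ISPD, -0.94 for FDXR and -0.94 for SBK1, and the difference of the effects was -0.73 for ISPD and turned to 0.57 for FDXR and 0.58 for SBK1. CYR61, a leading rise in DKO, stood at 10.5 and 25.6 CPM in the CDK19KO sublines, against 20.3 CPM in control, and the difference of its effects was 3.95 ± 0.16 (SE, adjusted p = 1.57e-22).

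Sublines of one genotype also differed. Between DKO-C1 and DKO-C2, 860 distinct genes (13.5%) were called, and between CDK8KO-C1 and CDK8KO-C2, 1712 (26.8%). Of the 28 genes named as the largest rises and falls, 15 differed between the DKO sublines and 17 between the CDK8KO sublines, while all 28 kept one direction in all 4 pairs, as the naming rule required. For NT5E the pair effects ran from 1.16 for DKO-C1 against CDK8KO-C1 to 4.28 for DKO-C2 against CDK8KO-C2, and for LCN2 from -0.58 to -4.17. Leaving NACA2, PABPC3 and UQCRHL aside, DCLK1, CPLX1, ISPD, KLK7, DPYSL3 and ARSJ differed least between the 4 pairs.

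**Figure D5:**
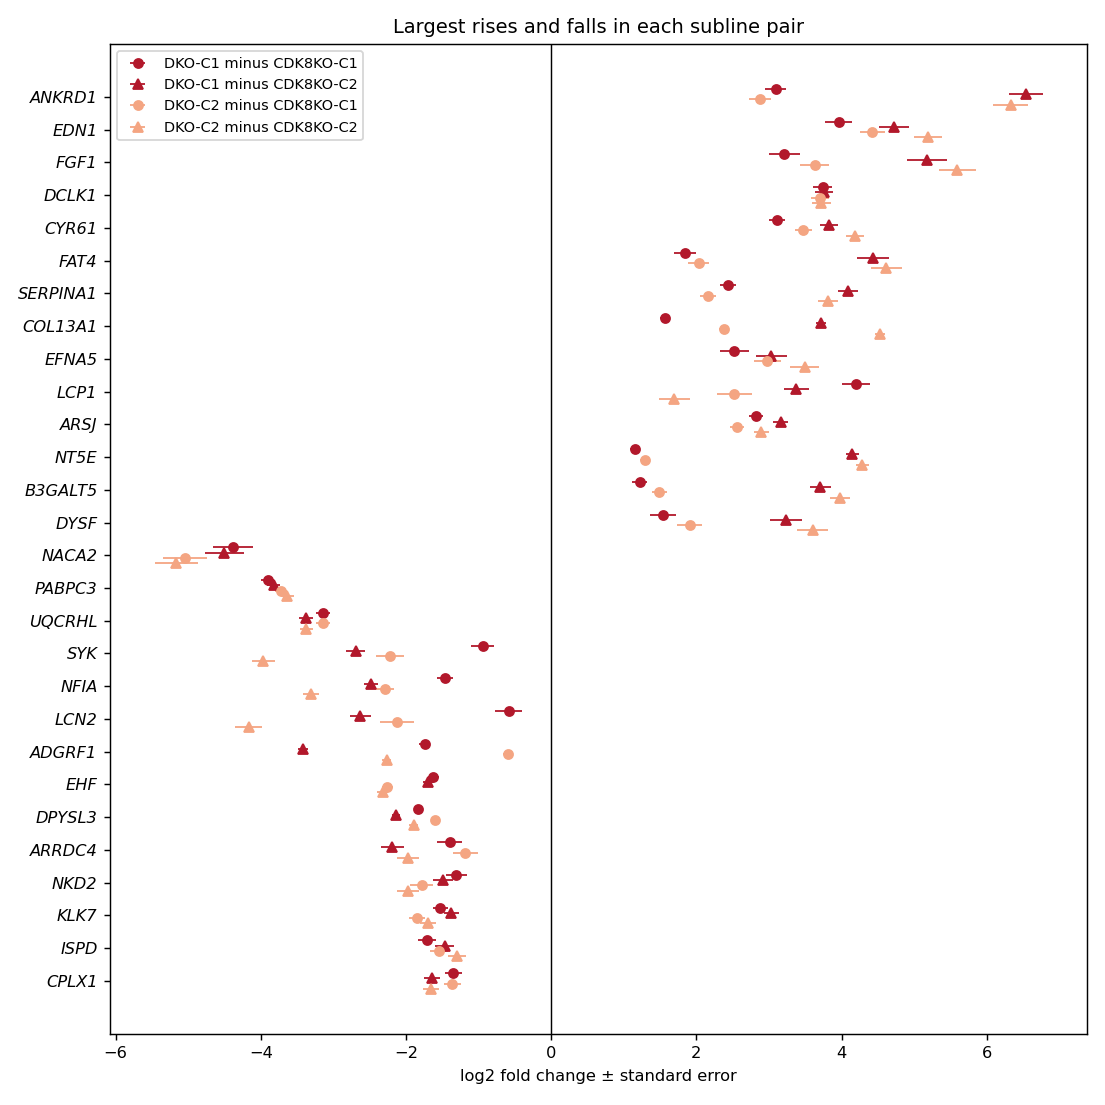
Log2 fold change with its standard error in each of the 4 pairs of a DKO with a CDK8KO subline, for the 14 largest rises and the 14 largest falls among distinct genes. Circles (against CDK8KO-C1) and triangles (against CDK8KO-C2) part for ANKRD1, NT5E, B3GALT5 and LCN2 and nearly coincide for DCLK1 and KLK7; NACA2, PABPC3 and UQCRHL resemble other genes.

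Of the 6804 flagged protein-coding genes tested, 4292 (63.1%) were called, against 65.2% of distinct genes, and some held very large differences. WDR83OS, COG8 and ECE2 had 0 counts in all 6 DKO libraries (3 counts in a library would be 0.159 to 0.164 CPM), against means of 28, 12.7 and 7.39 CPM in CDK8KO. PTP4A1, a phosphatase, averaged 0.0975 ± 0.0623 CPM in DKO and 309 ± 13.8 CPM in CDK8KO. These 4 share 75.5%, 93.4%, 58.8% and 76% of their 50-base words with other genes, and exons of other genes overlap them on the same strand. In the other direction, PYURF averaged 27.7 ± 2.07 CPM in DKO and 0.0266 ± 0.0439 CPM in CDK8KO, ATRIP 33.5 ± 2.62 CPM in DKO and 0.263 ± 0.0806 CPM in CDK8KO and POLR2F 51.9 ± 5.35 CPM in DKO and 0.427 ± 0.104 CPM in CDK8KO, and each overlaps another gene's exons. TM4SF1, a tetraspanin-like surface protein that overlaps an exon on the opposite strand by 88 bases, averaged 18 CPM in DKO-C1 and 50.1 CPM in DKO-C2, against 0.192 CPM in CDK8KO, and shares no 50-base words with other genes. Of protein-coding genes with shared words 13.2% differed by at least 2-fold in either direction, as did 6.57% of distinct genes and 4.64% of those with overlapping exons only. How far the values of flagged genes reflect the counting was not tested.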

How the data were processed

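RNA was sequenced as paired 100-base reads from total RNA, per the labels. The authors deposited whole-number counts for each gene and ERCC transcript, with no scaling. Reads were aligned with STAR 2.5.2 to hg38 and counted with featureCounts of Subread 1.6.3, per the submitters' processing notes. Neither strand setting nor annotation release is given in the sources used here. All 58039 genes of the table have an entry in GENCODE v29, which gave positions and transcripts for the overlap and for shared words of 50 bases (1 word in 8). Of the 26 columns, 22 were matched to 1 sample by name and 4 to a group; 3 of these carry a DKO clone number that no title has and stand for DKO-C2, the one DKO subline left without a column, as replicates a, b and c.

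Counts of all 26 libraries in 9 groups were fitted with edgeR 4.0.16 (R 4.3.3), quasi-likelihood, TMM factors and filterByExpr (minimum count 10, minimum total 15), which left 17198 genes. Calls are two-sided at 0.05 after Benjamini-Hochberg adjustment over all of them. Genotype contrasts average sublines. CPM use TMM library sizes and are not corrected for gene length. The labels do not say whether replicates come from separate cultures, so p-values measure the spread between libraries of a subline, which may be technical. Those of the main fit do not measure the spread between the sublines of a genotype. The members, the 50 gene lists and the naming rule were chosen with earlier results of these data known, so counts over lists are descriptions. The rule names, among distinct genes of at least 5 CPM in one genotype that are called in all 4 subline pairs without overlap of libraries, the 14 largest rises and falls, 6 shared and 4 opposite effects per direction in CDK19KO, up to 4 called members per list, and 4 flagged genes per direction; other list members are named where a count of 5 or fewer asks for it. Simulated counts with known changes were used to test the fit. They had the same spread for all genes and no differences between sublines of a genotype, so they do not bear on the genotype calls. Alternatives were DESeq2 1.42.0 and its size factors, limma 3.58.1 voom, ERCC factors, other filters, only the libraries compared, counts summed per subline, each pair, each library left out, a 2-fold minimum and other limits on shared words and overlap. TMM over distinct genes and words of 20 bases were added after seeing the data. Some genes that the rule would name are not reported here and were passed over. Promoters come from RefSeq (GRCh38.p14), matched by symbol or synonym. In DKO-C1 and the CDK8KO sublines, same-numbered libraries did not deviate together (correlations of -0.223 to 0.0274), and numbers were not used to pair samples. The columns of DKO-C2 could not be matched to numbers. Detection floors cover counting error only, while SE and SD also hold the spread between libraries.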

Additional observations from a re-analysis of the deposited data

Results flagged for a closer look

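Several leading genes differed between sublines of one genotype by more than 1 on the log2 scale. CDK8KO-C1 was above CDK8KO-C2 for ANKRD1 by 3.45, NT5E by 2.99, FAT4 by 2.59, B3GALT5 by 2.49, COL13A1 by 2.15, FGF1 by 1.97, DYSF by 1.70 and SERPINA1 by 1.65 log2 units. For genes lower in DKO the CDK8KO-C1 minus CDK8KO-C2 difference was -1.75 for SYK, -2.04 for LCN2, -1.68 for ADGRF1 and -1.01 for NFIA. DKO-C1 minus DKO-C2 was 1.68 for LCP1, 1.54 for LCN2, 1.27 for SYK and -1.15 for ADGRF1. Each of these differences was called by edgeR's quasi-likelihood test.

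The naming rule picked 8 genes called in opposite directions in DKO against CDK8KO and CDK19KO against control. Choosing them so made a call of the difference of their effects all but certain. Over all distinct genes that difference was called for 3990 (62.4%). On the log2 scale the DKO minus CDK8KO effect exceeded the CDK19KO minus control effect by 6.83 for DCLK1, 6.22 for EDN1, 5.12 for SLC1A3 and 2.79 for TNNC1. The difference was -2.70 for ISPD, -2.17 for AREG, -1.40 for FDXR and -1.39 for SBK1. With ERCC factors these 4 were -0.73, -0.18 (adjusted p = 0.291, not called), 0.57 and 0.58, so those of FDXR and SBK1 turned sign. The values of DCLK1 and EDN1 rest on CDK19KO-C1 libraries with 0 to 1 counts and are no bound.

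ERCC counts, which no comparison uses except as a scaling alternative, were present in libraries whose labels name no spike-in. Their mean share of all counts was 2.17% in DKO, 2.68% in CDK8KO and 3.57% in CDK19KO, and 1.04% to 1.24% in control libraries.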

How the results depend on the processing

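The main counts were 8464 protein-coding genes called, 4172 distinct ones, 2018 in all 4 subline pairs, 967 the same way in CDK19KO and 3990 with a different CDK19 effect. Leaving out each of the 12 libraries in turn gave 8144 to 8703, 4035 to 4331, 1807 to 2177, 925 to 1027 and 3906 to 4198. Counts summed per subline gave 3116 protein-coding and 1521 distinct calls. A minimum change of 2-fold gave 837, 405, 185, 31 and 599. With overlaps judged on the same strand only, more genes count as distinct, and the last 4 counts were 6867, 3301, 1538 and 6566. ERCC factors gave 218 same-way genes (4 higher, 214 lower) and 6255 different effects (6236 positive, 19 negative); the cause was not tested. The other alternatives tried stayed within 1.5 times of these counts. The main fit did not pair libraries by the labels' replicate numbers. With the replicate block, in DKO-C1 against both CDK8KO sublines, 7908 and 3935 genes were called, and 7973 and 3969 without it.

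With ERCC factors the log2 values of named genes that turned sign in DKO against CDK8KO were CDK8 0.073, CCNC 0.021, MED12L 0.017, MED13L 0.16, MT-ND3 0.063, MLXIPL 0.019, MLXIP 0.049, EPCAM 0.16, TEAD3 0.22, TGFBR1 0.19, TEAD4 0.17, ERBB3 0.030, and of list medians BET proteins and P-TEFb 0.19, Amino acid transporters 0.19, Cholesterol synthesis 0.21, Fatty acid synthesis and activation 0.15, Nuclear-encoded respiratory chain 0.19, Ribosomal proteins 0.21, MYC network 0.019, p53 targets 0.026, BCL2 family 0.20, DNA replication and S-phase entry 0.14, Wnt targets 0.15, Notch pathway 0.038. Medians between -0.1 and 0 turned too, cytosolic aminoacyl-tRNA synthetases to 0.27, serine synthesis to 0.29, splicing factors to 0.29 and hypoxia and glycolysis to 0.31. In DKO-C1 against both CDK8KO sublines the sign turned, without a replicate block, for CDK19 -0.045, EPCAM 0.039, KRT8 -0.038, MYL2 -0.33, and with the block for CDK19 -0.046, EPCAM 0.040, KRT8 -0.039, MYL2 -0.33. In single subline pairs it turned for CDK19 -0.11, MYL2 -0.45 (DKO-C1 against CDK8KO-C2), EPCAM 0.21, KRT8 -0.20, KRT18 -0.11, MYL2 -0.20 (DKO-C1 against CDK8KO-C1) and BAMBI 0.16, CDH1 -0.34 (DKO-C2 against CDK8KO-C2). MYL2, not called, ran from -0.0025 to 0.12 with single libraries left out. The median of the semaphorin, neuropilin and plexin list turned to -0.059 with a minimum of 5 CPM. In DKO libraries, values under 0.159 CPM rest on fewer than 3 counts.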

Other observations

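Among lists without a section above, amino acid transporters had 4 of 12 tested distinct members higher in DKO and 5 lower. The cationic amino acid transporter SLC7A2 averaged 17.4 ± 2.53 CPM in DKO and 39.6 ± 1.85 CPM in CDK8KO, and SLC38A2, a neutral amino acid transporter, 305 ± 30.7 CPM in DKO and 558 ± 65.4 CPM in CDK8KO. Hypoxia and glycolysis genes had 3 of 10 higher and 3 lower. The hypoxia-induced NDRG1 averaged 73.7 ± 9.17 CPM in DKO and 27.6 ± 5.22 CPM in CDK8KO, with 66 CPM in control, so the lower level was that of CDK8KO. Wnt targets had 3 of 8 higher and 3 lower: SP5 averaged 6.31 ± 1.10 CPM in DKO and 2.39 ± 0.395 CPM in CDK8KO and NOTUM, a Wnt deacylase, 26.6 ± 7.63 CPM in DKO and 13.8 ± 2.83 CPM in CDK8KO, while MYC fell. Of the intestinal identity list, 4 of 9 tested distinct members rose and 4 fell (median log2 fold change 0.082). KLF4, a factor of differentiated gut epithelium, averaged 13.8 ± 1.6 CPM in DKO and 7.99 ± 2.12 CPM in CDK8KO. Of the colorectal epithelial markers, 0 of 3 tested distinct members rose and 3 fell, and over all 6 tested members 2 rose and 3 fell. Of the 9 tested distinct NRF2 and ferritin genes 4 rose and 2 fell, and GCLM, of glutathione synthesis, averaged 119 ± 20.2 CPM in DKO and 80.5 ± 4.27 CPM in CDK8KO. Of the heat shock list, 3 of 4 tested distinct members rose and 0 fell, with 1 of 2 higher among those distinct by 20-base words too. Over all 13 tested members 4 rose and 5 fell (median log2 fold change -0.050). Its small heat shock protein HSPB1 averaged 572 ± 81.5 CPM in DKO and 334 ± 19.6 CPM in CDK8KO.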
